A study of Homo sapiens with 6 samples.

Results

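Human chromosome 19 carries the densest set of C2H2 zinc finger genes in the genome, and 261 of the 58024 genes in the deposited table belong to it by name and position: their symbols are ZNF followed by a number (and at most 1 further letter), and their locus lies on chromosome 19. Most of these genes encode KRAB zinc finger proteins, which bind DNA through a row of C2H2 fingers and carry an N-terminal KRAB box. The KRAB box recruits the corepressor TRIM28, which in turn brings the H3K9 methyltransferase SETDB1, HP1 proteins and the NuRD complex to the bound site, and many family members are known to silence transposable elements. The genes arose by tandem duplication and lie in clusters, so that neighbours are often close relatives.

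The RNA-Seq experiment compared C4-2B parental cells with C4-2B enzalutamide resistant cells, 3 libraries each, to describe the transcriptome of a cell line that had become resistant to the androgen receptor antagonist enzalutamide. C4-2B is a castration-resistant, bone-metastatic derivative of the androgen-responsive human prostate cancer line LNCaP, which carries a mutated androgen receptor. Both groups share this origin, and whether their genomes came to differ during selection was not measured. Resistance was selected over 6 months or longer with enzalutamide at 1 to 20 µM, survivors were pooled and grown on at 5 µM, and parental cells received the vehicle, dimethyl sulfoxide, instead. RNA was extracted after exposure to 10 µM enzalutamide, and whether the parental cells received this exposure is not clear from the methods. Each group was 1 cell population, no source says that its libraries came from separate cultures, and p-values therefore measure the spread between these libraries, which may be technical.

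Values are FPKM, read fragments divided by transcript length and library size, a level corrected for gene length, and the depth of the libraries was estimated at 13600000 to 20600000 reads. At that depth 1 read on a transcript of 3000 bases was worth 0.0173 to 0.0262 FPKM, and values near this level rest on few reads. All 9 luminal prostate markers were above 0 in every library, although their summed level was lower in the resistant libraries (1170 to 1250 FPKM) than in the parental ones (4150 to 4910 FPKM). The 6 neuroendocrine markers summed to 6.83 to 10.7 FPKM in the parental and to 189 to 211 FPKM in the resistant libraries, with SYP and ENO2 the leading genes and INSM1 near 0. Basal markers summed to at most 0.927 FPKM, immune markers to at most 1.18 FPKM with CD3E at 0, and fibroblast markers to 5.09 to 8.74 FPKM in the parental and 7.64 to 12.4 FPKM in the resistant libraries. The part of these markers in the results on zinc finger genes was not tested.

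Nearly the whole family was expressed in both cell populations. Of the 261 genes, 260 were above 0 in at least 1 library, 237 were above 0 in all 6, 227 had a mean of at least 1 FPKM and 68 a mean of at least 10 FPKM. The annotation lists 245 as protein-coding and 16 as pseudogenes. A KRAB box was found in the coding sequence of 213 of the 245. Summed over all 261 genes, the level was 2016, 2090 and 2206 FPKM in the parental and 1966, 2136 and 2181 FPKM in the resistant libraries, so that the summed ranges overlapped while single genes moved in both directions.

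Sorted by position on GRCh38, 249 of the 261 genes fell into 9 clusters of at least 5 genes, separated by gaps of more than 1 Mb, and 12 were scattered between them. Clusters are numbered here from the end of the short arm. Cluster 4, at 19.7 to 24.1 Mb next to the centromere on the short arm, holds 41 of the genes and is a region known for recent expansion in primates. The largest is cluster 9, with 60 genes at 55.5 to 58.5 Mb near the end of the long arm.

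The promoters of cluster 4 resemble each other, and the RefSeq sequences of 7 genes are printed to show this. They give the 250 bases upstream of the RefSeq gene start on build GRCh38.p14, written 5′ to 3′ along the strand of the gene. Capitals mark the 7-base word CCGGAAG or its reverse complement CTTCCGG, the core recognised by ETS-family transcription factors, searched on both strands. ZNF208, ZNF492, ZNF681 and ZNF43 are genes of cluster 4 that rose in resistant cells, ZNF91 is a gene of cluster 4 that did not pass the test, and ZNF677 and ZNF69 are genes of clusters 8 and 3 that rose.
ZNF208, chr19:22010944-22011193, minus strand: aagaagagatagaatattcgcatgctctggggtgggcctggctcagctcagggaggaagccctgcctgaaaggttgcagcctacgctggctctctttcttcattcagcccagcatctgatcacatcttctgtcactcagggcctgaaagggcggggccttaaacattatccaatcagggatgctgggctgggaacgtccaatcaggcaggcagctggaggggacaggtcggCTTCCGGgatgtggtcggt
ZNF492, chr19:22634074-22634323, plus strand: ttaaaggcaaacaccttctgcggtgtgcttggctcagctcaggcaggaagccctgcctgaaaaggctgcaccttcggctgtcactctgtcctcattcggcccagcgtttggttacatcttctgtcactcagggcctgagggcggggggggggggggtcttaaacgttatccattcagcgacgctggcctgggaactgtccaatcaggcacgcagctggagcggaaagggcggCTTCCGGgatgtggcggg
ZNF681, chr19:23758892-23759141, minus strand: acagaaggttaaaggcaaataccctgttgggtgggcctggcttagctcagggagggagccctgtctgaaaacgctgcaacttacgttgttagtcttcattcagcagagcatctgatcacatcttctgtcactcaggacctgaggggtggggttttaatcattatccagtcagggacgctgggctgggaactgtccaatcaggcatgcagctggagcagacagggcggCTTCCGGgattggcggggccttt
ZNF43, chr19:21836183-21836432, minus strand: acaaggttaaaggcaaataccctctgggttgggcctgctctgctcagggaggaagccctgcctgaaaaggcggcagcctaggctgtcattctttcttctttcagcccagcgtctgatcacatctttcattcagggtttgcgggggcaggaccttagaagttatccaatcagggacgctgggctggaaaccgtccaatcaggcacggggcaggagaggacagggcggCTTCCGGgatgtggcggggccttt
ZNF91, chr19:23395472-23395721, minus strand: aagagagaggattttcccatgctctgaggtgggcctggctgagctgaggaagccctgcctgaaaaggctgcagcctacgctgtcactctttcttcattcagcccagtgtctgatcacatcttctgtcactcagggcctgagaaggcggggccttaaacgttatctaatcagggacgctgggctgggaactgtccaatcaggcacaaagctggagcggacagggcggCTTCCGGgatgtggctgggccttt
ZNF677, chr19:53254824-53255073, minus strand: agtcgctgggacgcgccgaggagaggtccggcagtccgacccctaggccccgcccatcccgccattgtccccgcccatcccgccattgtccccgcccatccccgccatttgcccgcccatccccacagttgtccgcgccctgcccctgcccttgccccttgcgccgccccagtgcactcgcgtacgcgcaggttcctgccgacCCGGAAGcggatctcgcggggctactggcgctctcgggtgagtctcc
ZNF69, chr19:11887532-11887781, plus strand: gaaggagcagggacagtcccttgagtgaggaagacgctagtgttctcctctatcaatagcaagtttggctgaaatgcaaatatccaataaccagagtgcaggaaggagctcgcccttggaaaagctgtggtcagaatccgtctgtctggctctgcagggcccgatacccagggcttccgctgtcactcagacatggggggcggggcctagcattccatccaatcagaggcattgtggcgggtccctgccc

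In the 5 sequences from cluster 4 the word stands in the same orientation close to the gene start, ZNF677 holds it in the opposite orientation, and ZNF69 lacks it. Pairwise identity of these 5 sequences in a global alignment ranged from 75.8% (ZNF492 and ZNF681) to 86.4% (ZNF208 and ZNF91). Over all 29 genes of cluster 4 that matched the RefSeq promoter table, the median identity of 406 pairs was 76.2%, and 254 pairs reached 70%. The medians within the other clusters were 50.2% to 55.2%, and between clusters 4 and 9 the median was 50.2%. Pairs of at least 70% were also found in cluster 8 (44 of 496) and cluster 3 (12 of 276), where ZNF69 and ZNF439 reached 86.2%. Each remaining cluster had at most 2 such pairs.

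CCGGAAG was present in 69 of the 215 promoters that could be matched (32.1%), in 8.52% of all 35116 promoters of the table and in 10.8% of those of protein-coding genes. ZNF genes on other chromosomes held it in 23.6%. Along chromosome 19 the share was 65.5% in cluster 4 (19 of 29) and 50.0% in cluster 9 (27 of 54), and it was 4.17% in cluster 3 (1 of 24). By call, 43.5% of the genes that rose in resistant cells held the word, 28.2% of those that fell and 29.6% of those not past the threshold, and since cluster 4 supplies many of the genes that rose, these shares are not independent of position. The GC-box word GGGCGG, the core bound by SP1, was present in 65.1% of the matched members and in 42.6% of all promoters. It was present in 54.3% of the promoters of protein-coding genes and in 58.4% of the other promoters of chromosome 19. Of a pair of palindromic words, the NRF1 motif was present in 1.86% of the members and 1.03% of all promoters, and the CGCG-centred motif linked to ZBTB33 in 0.465% and 0.373%. In the other promoters of chromosome 19 these shares were 2.06% and 0.294%, and in those of protein-coding genes 1.27% and 0.521%. These matches describe letters in a window and not bound sites.

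Resistant and parental libraries were compared by limma on log2(FPKM + 0.1), and fold changes are on that scale, which understates the change of genes at low levels. Of the 249 members with a mean of at least 0.1 FPKM, 62 were higher and 45 were lower in resistant cells at a Benjamini-Hochberg adjusted p below 0.05, and 142 did not pass. Without parental replicate 2 the number lower was 29. The called share was 43.0% of the members tested, beside 44.4% of all 24468 genes tested, of which 22.1% were called higher and 22.3% lower. The share of members called was thus close to the background. Requiring a change of at least 2-fold as well left 35 members higher and 17 lower, with 15.0% and 13.6% of all genes. In 57.4% of the members tested the groups did not overlap (80 with the resistant libraries higher and 63 lower), beside 54.8% of all genes.

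The median log2 fold change of the members was 0.08, beside -0.05 over all genes, and it was 0.04 after quantile normalization, 0.19 with median-ratio scaling and -0.06 when values were rescaled without genes under 300 bases. The last setting also turned the balance of calls to 53 higher and 66 lower, and median-ratio scaling gave 75 and 38. Short genes took 19.43% to 20.72% of the summed FPKM in the parental and 12.1% to 12.8% in the resistant libraries. Rescaling without them shifted the median of all genes by -0.12, and median-ratio scaling by 0.10, so that the balance of directions over the whole family cannot be read without reference to the scaling. Single changes ran from -2.56 for ZNF132 to 5.75 for ZNF98.

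ZNF genes on other chromosomes gave a similar picture, with 66 higher and 53 lower of 253 tested (47.0% called) and a median of 0.11. The other protein-coding genes of chromosome 19 were called more often, at 56.2% of 898 tested, as were all protein-coding genes (55.7%). Members with a KRAB box had 49 higher and 40 lower of 209 tested, and protein-coding members without one had 10 higher and 4 lower of 31. None of these differences in share was tested.

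**Figure D1:**
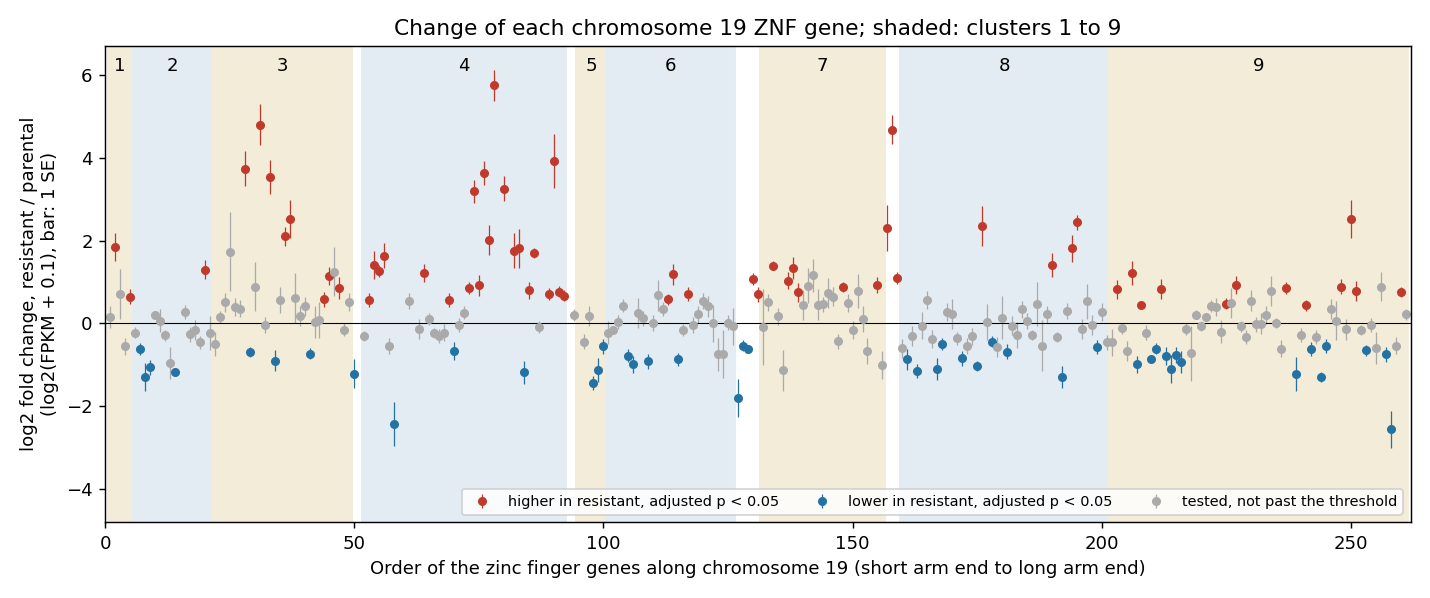
Log2 fold change (resistant over parental, on log2(FPKM + 0.1), y axis) of the 249 tested zinc finger genes in their order along chromosome 19 (x axis), with bars of 1 SE and clusters 1 to 9 shaded. Red points (62) were higher and blue points (45) lower in resistant cells, and red points crowd in cluster 4, where 21 of 35 tested genes rose, while the balance over the whole family turned to 53 and 66 when values were rescaled without short genes.

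Read along the chromosome, the direction of change differed between clusters. Cluster 4 had 21 genes higher and 3 lower of 35 tested (68.6% called, beside 44.4% of all genes), with a median log2 fold change of 0.71. The summed level of its 41 genes was 259, 269 and 287 FPKM in the parental and 346, 361 and 374 FPKM in the resistant libraries, without overlap. The 35 tested genes inside the same span but outside the family by name had 9 higher (25.7%) and 5 lower (14.3%), with a median of 0.37. Such neighbours were set apart by symbol alone, so zinc finger genes with other symbols can be among them. Under every scaling tried the median of cluster 4 stayed above that of all genes, by 0.76 to 0.81, and the number of its genes called higher was between 16 and 23 over all alternatives run.

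Cluster 3, at 11.5 to 12.6 Mb, had 8 genes higher (28.6%) and 3 lower (10.7%) of 28 tested, beside 22.1% and 22.3% of all genes. Its median was 0.52, while its 24 tested neighbours outside the family by name had a median of -0.10. In cluster 7, at 43.5 to 45.1 Mb, 6 of 24 tested genes were higher and none was lower by limma with Benjamini-Hochberg adjustment. The numbers were 9 and 2 at an unadjusted p below 0.05, and 2 genes were called lower without parental replicate 1. The share higher was thus close to the 22.1% of all genes, and the share called in either direction was below their 44.4%. The median of cluster 7 was 0.50. Here the neighbours moved further, with 17 of 39 higher (43.6%), 2 lower (5.13%) and a median of 0.94. The small cluster 1, at 2.82 to 2.94 Mb, had 2 of 5 genes higher and none lower by the same test (1 lower at an unadjusted p below 0.05), with 1 gene higher when any library other than resistant replicate 0 was left out, and its median, 0.70 above that of all genes, was 0.16 above it with a pseudocount of 1.

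The remaining clusters had medians below or near 0. Beside 22.3% of all genes called lower, the share lower was 26.7% in cluster 2, 23.8% in cluster 8 and 23.7% in cluster 9, all close to it. It was 15.4% in cluster 6, and the 60.0% in cluster 5 rested on 5 tested genes. The share higher was 6.67%, 9.52%, 20.3% and 11.5% in clusters 2, 8, 9 and 6, beside 22.1% of all genes. Cluster 5, at 34.5 to 35 Mb, had 3 of 5 tested genes lower and none higher by limma with Benjamini-Hochberg adjustment (4 and 0 at an unadjusted p below 0.05), but 1 lower without parental replicate 1, with a median of -0.55, and its 11 tested neighbours had a median of -1.23. In cluster 2, at 7.07 to 9.79 Mb, 4 of 15 genes were lower and 1 higher (median -0.26, neighbours -0.28), and 7 were lower when values were rescaled without short genes. Cluster 8, at 51.6 to 53.6 Mb, had 10 of 42 lower and 4 higher (median -0.28, neighbours -0.94), but without parental replicate 2, or without resistant replicate 0, 4 of its genes were called lower, and with the rescaling 16. Relative to all genes its median was -0.22, and -0.07 without resistant replicate 0. Cluster 6, at 36.2 to 37.8 Mb, had 3 higher and 4 lower of 26 (median 0.01), and cluster 9 had 12 higher and 14 lower of 59 (median -0.07). In cluster 9 the number lower was 8 or 9 without parental replicate 1 or any 1 of the resistant libraries, and the number higher was 7 without resistant replicate 2. With a gap of 0.5 Mb, cluster 9 split between ZNF835 and ZNF264, and its shares describe both parts together.

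**Figure D2:**
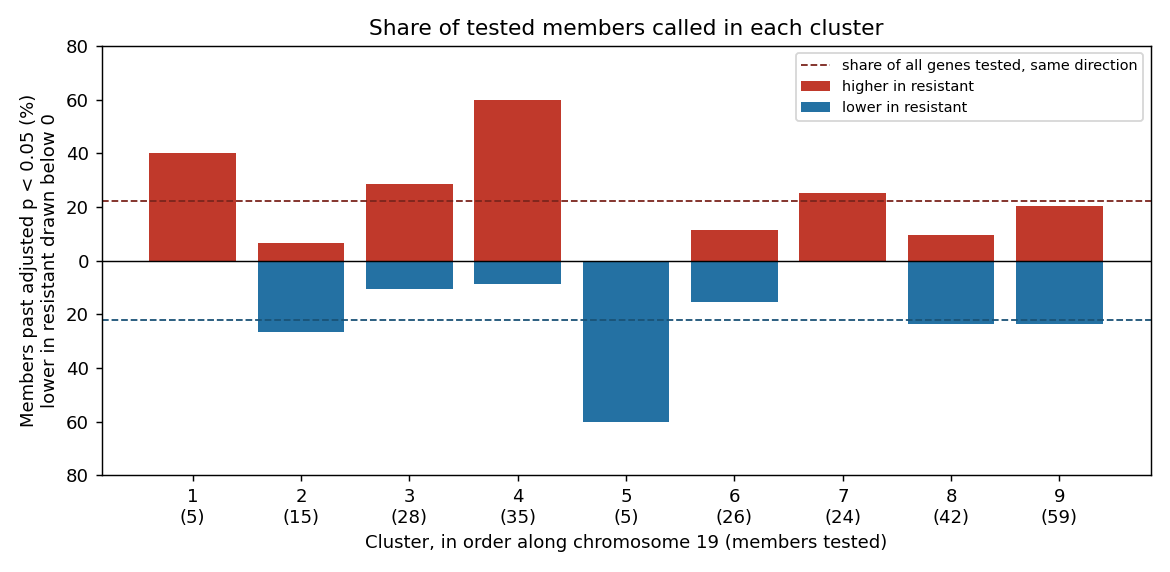
Percentage of tested members past an adjusted p of 0.05 in each of the 9 clusters (x axis, number of members tested in brackets), with genes higher in resistant cells above 0 and genes lower in resistant cells below 0. The dashed lines give the share of all 24468 genes in each direction (22.1% and 22.3%); the bar of cluster 4 reaches 60.0% higher and 8.57% lower, and that of cluster 5 rests on 5 genes.

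Neighbouring genes often differed in direction, and of 230 pairs of tested neighbours within clusters, 125 (54.3%) had the same sign. Cluster 4 held 9 consecutive tested genes that all rose, from ZNF43 to ZNF723P, and 2 further runs of 4, from ZNF14 to ZNF93 and from ZNF675 to ZNF254. Between the first run of 4 and the run of 9 lay ZNF85 and ZNF738, which rose, ZNF90 and ZNF493, which fell, and genes such as ZNF682, ZNF714 and ZNF431, which did not pass the test. Runs of like calls also lay outside cluster 4, the longest being 4 genes of cluster 9 that fell, from ZNF583 to ZNF470. Runs of 3 lay in clusters 2 and 5 (lower), in cluster 7 (higher) and among the scattered genes in each direction. Of the genes of cluster 4 described next, ZNF98, ZNF676, ZNF681 and ZNF728 were named by a rule on the size of their change, ZNF93 and ZNF91 for their known role, and the others were picked after their values were seen.

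ZNF98 showed the largest increase of the whole family. Parental cells had 0.122, 0.0207 and 0 FPKM, and resistant cells had 7.44, 7.41 and 7.18 FPKM. Thus it went from a level of a few reads to that of a well expressed family member, and the log2 fold change was 5.75 ± 0.37 (SE, limma with Benjamini-Hochberg adjustment, adjusted p = 8.15e-05). The size depends on the pseudocount, with 3.0 at a pseudocount of 1 and 7.74 at 0.01. ZNF98 encodes 13 fingers and a KRAB box, and 41% of its 50-base words occur in transcripts of other genes, so that 50-base reads cannot always be assigned to it alone.

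ZNF676 lies in the same run, at chr19:22179089-22215801. Its level was 0.354, 0.428 and 0.766 FPKM in parental and 7.64, 6.91 and 7.25 FPKM in resistant cells, a 14.1-fold difference of means. The log2 fold change was 3.64 ± 0.29 (SE, limma with Benjamini-Hochberg adjustment, adjusted p = 0.000189), and 7.78% of its words were shared. ZNF208, the member of this run with the most fingers (36), was at 0.358, 0.262 and 0.481 FPKM in parental and at 4.25, 3.71 and 4.31 FPKM in resistant cells (11.1-fold, log2 fold change 3.19 ± 0.28 SE). ZNF492 was at 0.108, 0.139 and 0.105 FPKM in parental and at 1.86, 2.13 and 1.93 FPKM in resistant cells, with a log2 fold change of 3.25 ± 0.30 (SE). For both, all resistant libraries stood above all parental libraries, and both shared words with other transcripts (24.8% and 33.3%).

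ZNF43, the first gene of the run, was already well expressed and rose less. Its level was 16.7, 18.8 and 22.8 FPKM in parental and 33.7, 32.4 and 39.3 FPKM in resistant cells (1.81-fold, log2 fold change 0.86 ± 0.14 SE). ZNF729, which encodes 34 fingers, went from 0.118, 0.072 and 0.145 to 0.762, 0.733 and 0.743 FPKM. ZNF99 and ZNF723P stayed below 1 FPKM in every library, with mean levels of 0.263 and 0.504 FPKM in resistant cells. The pseudogene ZNF849P, which lies within the same stretch, was at 0 in the 3 parental libraries and at 0.147, 0.207 and 0.242 FPKM in the resistant libraries; its mean of under 0.1 FPKM kept it out of the test, and the deposited table gives it a locus that also covers ZNF492.

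ZNF681 lies in the last run of cluster 4, at chr19:23739195-23758891. It was at 0.0821, 1.00 and 0.66 FPKM in parental and at 8.26, 7.31 and 8.36 FPKM in resistant cells. The parental libraries varied widely among themselves, yet the groups did not overlap, and the log2 fold change was 3.92 ± 0.66 (SE, limma with Benjamini-Hochberg adjustment, adjusted p = 0.00371). ZNF93, a repressor of LINE-1 elements, was at 3.61, 2.15 and 4.97 FPKM in parental and at 10.5, 11.4 and 10.2 FPKM in resistant cells (2.99-fold, log2 fold change 1.63 ± 0.30 SE, adjusted p = 0.00521 by limma with Benjamini-Hochberg adjustment).

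ZNF91, the repressor of SVA elements with 31 fingers and 1 of the most abundant genes of the cluster, did not pass the test. Its level was 26.3, 34.5 and 27.8 FPKM in parental and 31.1, 25.2 and 26.6 FPKM in resistant cells, so that the groups overlapped (log2 fold change -0.09 ± 0.14 SE, limma with Benjamini-Hochberg adjustment, adjusted p = 0.615). Its upstream sequence, printed above, was 86.4% identical to that of ZNF208. ZNF728, the gene that follows ZNF723P in the cluster, fell from 8.26, 7.95 and 11 to 3.24, 3.16 and 5.78 FPKM (log2 fold change -1.18 ± 0.28 SE, adjusted p = 0.014 by limma with Benjamini-Hochberg adjustment, 0.0504 without resistant replicate 0). ZNF90 was at 0.20, 0.487 and 0.778 FPKM in parental cells and was listed at 0 in all 3 resistant libraries, and ZNF493 was the third gene called lower. The call of ZNF493 (adjusted p = 0.0454, limma with Benjamini-Hochberg adjustment) was lost with single libraries left out, at up to 0.13 by the same test.

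Taking the 21 genes of cluster 4 that rose, 8 had a parental mean under 1 FPKM, and 18 had a resistant mean of at least 1 FPKM. The 13 genes with a parental mean of at least 1 FPKM rose by at most 1.70 on the log2 scale, reached by ZNF724P. All 21 kept a positive change with any 1 library left out, and 16 also passed the threshold each time, the other 5 being ZNF14, ZNF738, ZNF257, ZNF723P and ZNF730. At least 20% of the 50-base words were shared with other transcripts in 4 of the 21 (ZNF208, ZNF98, ZNF492 and ZNF724P). Across all members, the 36 with at least 20% shared words had 12 higher and 2 lower of 31 tested, and the 225 others had 50 higher and 43 lower of 218.

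**Figure D3:**
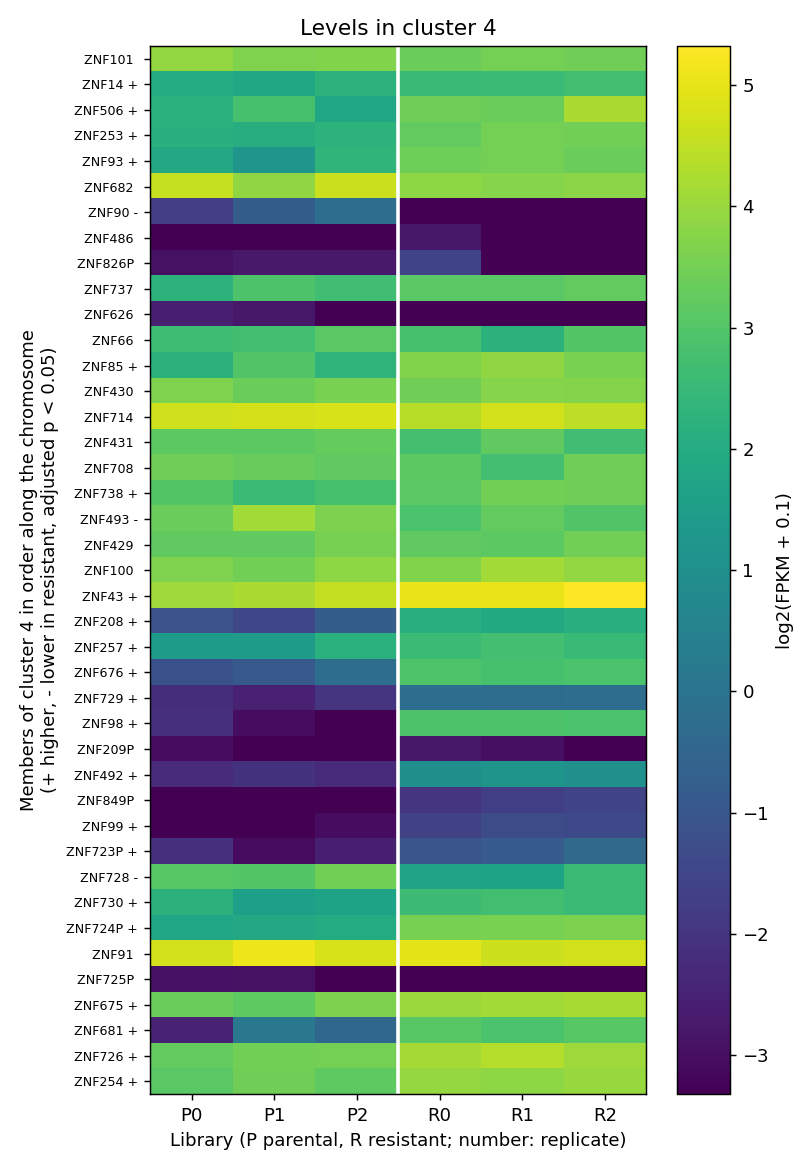
Level of the 41 genes of cluster 4 as log2(FPKM + 0.1) (colour) in each of the 3 parental (P) and 3 resistant (R) libraries, from top to bottom in order along the chromosome. A plus marks the 21 genes that were higher and a minus the 3 that were lower in resistant cells, and the stretch from ZNF43 to ZNF723P turns lighter from P to R in each gene with a plus.

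Outside cluster 4, the largest increases lay in cluster 3 and at a scattered gene. ZNF69, of cluster 3, was listed at 0 in 2 parental libraries and at 0.19 FPKM in the other, and was at 4.21, 3.82 and 3.60 FPKM in resistant cells. The log2 fold change was 4.80 ± 0.50 (SE, limma with Benjamini-Hochberg adjustment, adjusted p = 0.000511). ZNF491, a neighbour without a KRAB box, was at 0, 0 and 0.0339 FPKM in parental and at 1.06, 1.21 and 2.01 FPKM in resistant cells (log2 fold change 3.74 ± 0.42 SE). Both were near the level of single reads in parental cells, so no linear fold is given for them.

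Also in cluster 3, and chosen after their values were seen, ZNF763 and ZNF844 rose by 3.54 ± 0.41 and 2.10 ± 0.22 (SE) on the log2 scale. Each of them shared 45.4% of its words with other transcripts, and 12 of the 28 genes of cluster 3 shared at least 20%. When genes with such sharing were left out, the median of cluster 3 was 0.31 above that of all genes, in place of 0.57. ZNF433 went the other way within this cluster, from 5.36, 7.66 and 7.95 to 2.77, 4.61 and 3.77 FPKM (log2 fold change -0.90 ± 0.25 SE). Its call (adjusted p = 0.0273, limma with Benjamini-Hochberg adjustment) was lost with any of 4 libraries left out, with an adjusted p of up to 0.0843 by the same test.

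ZNF114, at chr19:48270081-48287608 outside all clusters, encodes only 3 fingers. It was at 0, 0.0244 and 0.0371 FPKM in parental and at 3.82, 2.79 and 2.46 FPKM in resistant cells, without overlap. The log2 fold change was 4.68 ± 0.35 (SE, limma with Benjamini-Hochberg adjustment, adjusted p = 0.000147). ZNF473, another scattered gene, encodes a protein of the U7 snRNP pathway that matures histone mRNA, and it was at 10.5, 13.4 and 12.7 FPKM in parental and 22.8, 27.9 and 27.7 FPKM in resistant cells (2.14-fold). Its log2 fold change was 1.09 ± 0.14 (SE, limma with Benjamini-Hochberg adjustment, adjusted p = 0.00111).

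ZNF677, in cluster 8, rose within a cluster in which most calls were lower. Its level was 2.09, 2.53 and 2.52 FPKM in parental and 11.3, 13.0 and 16.2 FPKM in resistant cells, a 5.67-fold difference of means. The log2 fold change was 2.44 ± 0.18 (SE, limma with Benjamini-Hochberg adjustment, adjusted p = 0.000143), and 1.34% of its words were shared. ZNF135, in cluster 9, was at 0.0923, 0.25 and 0.129 FPKM in parental and at 1.61, 0.824 and 1.76 FPKM in resistant cells (8.90-fold, log2 fold change 2.52 ± 0.45 SE). ZNF428, a gene of cluster 7 with 1 finger and no KRAB box, was at 14.1, 13.4 and 11.6 FPKM in parental and at 36.4, 33.1 and 33.3 FPKM in resistant cells (2.63-fold, log2 fold change 1.39 ± 0.11 SE).

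In clusters 6, 1 and 2 the leading increases were those of ZNF420, ZNF555 and ZNF812P. ZNF420, known as APAK, a negative regulator of p53-driven apoptosis, was at 9.23, 5.08 and 9.09 FPKM in parental and 16.3, 18.9 and 16.8 FPKM in resistant cells of cluster 6 (log2 fold change 1.19 ± 0.25 SE). The resistant libraries stood above the parental ones in this gene. ZNF555 in cluster 1 went from a mean of 0.204 to 1.00 FPKM (log2 fold change 1.84 ± 0.34 SE), and the pseudogene ZNF812P in cluster 2 from 1.67 to 4.21 FPKM (1.30 ± 0.23 SE), with 89.8% of its words shared with other transcripts. All 3 passed the threshold (limma with Benjamini-Hochberg adjustment, adjusted p = 0.0086, 0.00574 and 0.00443).

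The largest decreases were smaller in size than the largest increases and lay in several clusters. ZNF132, in cluster 9, whose promoter is often methylated in prostate tumours, was at 0.932, 1.40 and 1.40 FPKM in parental and at 0.259, 0.0637 and 0.091 FPKM in resistant cells. The groups did not overlap, and the log2 fold change was -2.56 ± 0.44 (SE, limma with Benjamini-Hochberg adjustment, adjusted p = 0.00414). None of its 50-base words occurs in other transcripts. ZNF814, also in cluster 9, fell from 16.1, 16.7 and 18.2 to 6.44, 6.49 and 7.71 FPKM (log2 fold change -1.30 ± 0.12 SE, adjusted p = 0.000338 by limma with Benjamini-Hochberg adjustment).

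ZNF599 was the leading gene of cluster 5. It was at 8.58, 9.10 and 9.21 FPKM in parental and at 3.72, 3.30 and 2.77 FPKM in resistant cells, with a log2 fold change of -1.44 ± 0.16 (SE, limma with Benjamini-Hochberg adjustment, adjusted p = 0.000623). The next tested genes of this cluster, ZNF30 and ZNF792, chosen after their values were seen, also fell, by 1.12 and by 0.55 on the log2 scale. Both calls (adjusted p = 0.0218 and 0.0446, limma with Benjamini-Hochberg adjustment) were lost with single libraries left out, at up to 0.0652 and 0.112 by the same test. ZNF415 in cluster 8 fell from 2.22, 3.38 and 3.58 to 1.23, 1.21 and 1.07 FPKM (log2 fold change -1.29 ± 0.26 SE). In cluster 6, ZNF382, a KRAB repressor silenced by methylation in several carcinomas, fell from 7.82, 6.73 and 6.23 to 2.74, 4.37 and 3.33 FPKM (log2 fold change -0.99 ± 0.21 SE).

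For 2 of the 6 largest decreases the call rested on the full set of libraries. ZNF546, a scattered gene with 22 fingers, was at 6.11, 7.87 and 6.81 FPKM in parental and at 0.838, 2.75 and 2.86 FPKM in resistant cells (log2 fold change -1.81 ± 0.46 SE, adjusted p = 0.0196 by limma with Benjamini-Hochberg adjustment). Without parental replicate 1 or without parental replicate 2 its adjusted p rose above the threshold, to 0.0596 at most in the same test. ZNF414, in cluster 2, was at 22.4, 12.5 and 17.3 FPKM in parental and at 9.24, 4.24 and 8.07 FPKM in resistant cells (log2 fold change -1.30 ± 0.34 SE, adjusted p = 0.0225 by the same test). It lost the call without parental replicate 0, parental replicate 2 or resistant replicate 2, with an adjusted p of up to 0.0719 by limma.

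**Figure D4:**
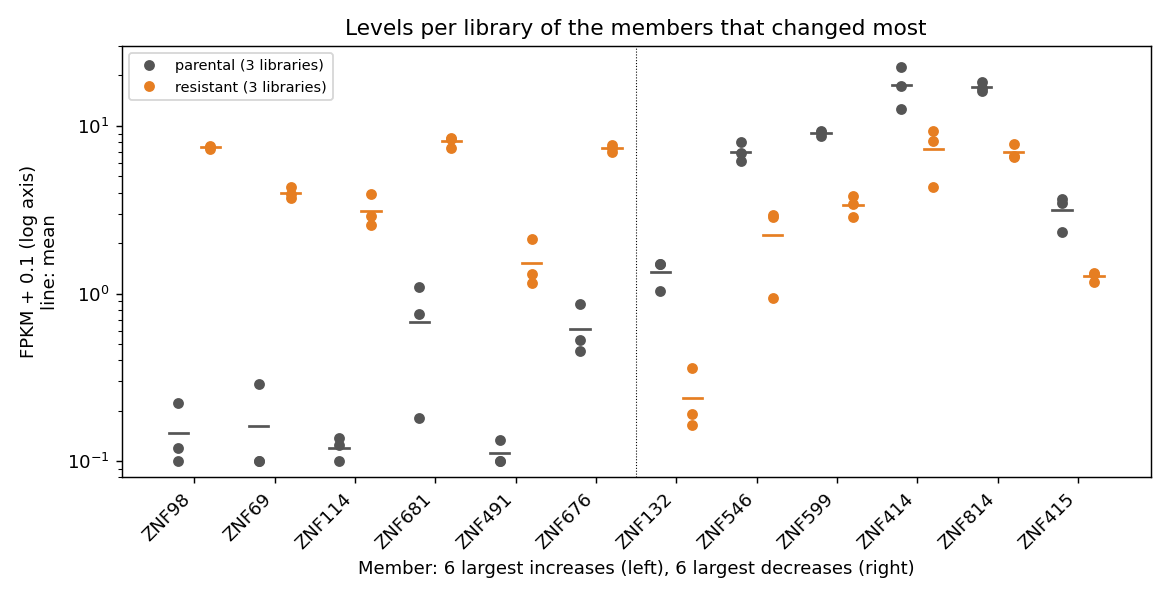
Level per library (points, FPKM + 0.1 on a log axis, with a line at the mean) of the 12 members that moved furthest, 6 up and 6 down, among calls without overlap between groups and with a group mean of at least 1 FPKM. On the left the parental libraries of ZNF98, ZNF69, ZNF114 and ZNF491 sit near the pseudocount of 0.1 and the resistant ones between 1.06 and 7.44 FPKM, and on the right all resistant libraries sit below the parental ones.

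The 3 most abundant zinc finger genes of chromosome 19 did not pass the threshold. ZNF460, the most abundant, was at 73.5, 71.0 and 69.7 FPKM in parental and at 80, 79.6 and 79.7 FPKM in resistant cells. The groups did not overlap, but the log2 fold change of 0.16 ± 0.06 (SE) did not pass the threshold (limma with Benjamini-Hochberg adjustment, adjusted p = 0.0716), whereas it did after quantile normalization and with median-ratio scaling. ZNF146, a protein made of fingers alone, was at 68.1, 64.5 and 66.7 FPKM in parental and at 55.4, 60.5 and 64.1 FPKM in resistant cells, without overlap (log2 fold change -0.15 ± 0.08 SE), and it was called lower when values were rescaled without genes under 300 bases (-0.30). ZNF121 was at 49.2, 44 and 70.3 FPKM in parental and at 42.2, 45.2 and 46.5 FPKM in resistant cells, and its groups overlapped.

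Of the next in abundance, ZNF544 and ZNF358 fell. ZNF544 was at 50.9, 50.3 and 62.2 FPKM in parental and at 34.2, 39.1 and 30.6 FPKM in resistant cells (log2 fold change -0.65 ± 0.13 SE). ZNF358 was at 33.0, 41.1 and 32.0 FPKM in parental and at 26.0, 21.3 and 21.6 FPKM in resistant cells (log2 fold change -0.62 ± 0.14 SE). The parental libraries of both were above all resistant libraries (adjusted p = 0.00749 and 0.011, limma with Benjamini-Hochberg adjustment).

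Of the members with a described role, ZNF274, ZNF350, ZNF331 and ZNF224 did not pass the threshold, as was the case for ZNF91. ZNF274, which recruits SETDB1 to the 3′ ends of zinc finger genes themselves, was at 23.7, 20.2 and 27.1 FPKM in parental and at 20.6, 23 and 19.5 FPKM in resistant cells, with overlap (log2 fold change -0.16 ± 0.13 SE). ZNF350, also called ZBRK1, a partner of BRCA1, had means of 7.88 and 7.54 FPKM, and the sign of its change (-0.05 ± 0.32 SE) depended on the scaling and on single libraries. ZNF331 had means of 17.5 and 12.7 FPKM and did not overlap between groups, but missed the threshold (log2 fold change -0.46 ± 0.18 SE, limma with Benjamini-Hochberg adjustment, adjusted p = 0.0877). It passed with the replicate block, when values were rescaled without genes under 300 bases (-0.61) and without resistant replicate 1 (-0.60). ZNF224, a repressor of the aldolase A gene, had means of 6.37 and 8.93 FPKM (log2 fold change 0.46 ± 0.19 SE, adjusted p = 0.102 by the same test, limma), and passed with median-ratio scaling (0.56).

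ZNF444, a SCAN-domain factor without a KRAB box, gave the clearest decrease of the genes with a described role. It was at 35.4, 35.9 and 37.5 FPKM in parental and at 21.2, 19.9 and 19 FPKM in resistant cells (log2 fold change -0.85 ± 0.08 SE, limma with Benjamini-Hochberg adjustment, adjusted p = 0.000366). ZNF568, whose mouse counterpart represses a placental Igf2 promoter, rose from 6.91, 6.21 and 7.90 to 10.3, 9.89 and 11.2 FPKM (log2 fold change 0.58 ± 0.14 SE). The groups of both genes did not overlap.

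ZNF154, ZNF671 and ZNF582, genes of cluster 9 whose promoters are known as methylation markers of carcinomas, gave different values. ZNF154 was at or below 0.0239 FPKM in every library, with 4 of 6 listed at 0. ZNF671 went from 1.17, 1.32 and 1.45 to 0.894, 0.423 and 0.324 FPKM (log2 fold change -1.22 ± 0.40 SE), and ZNF582 from 1.55, 1.25 and 1.76 to 3.24, 2.89 and 2.26 FPKM (0.83 ± 0.25 SE). Both were called at an adjusted p of 0.0472 and 0.0328 by limma with Benjamini-Hochberg adjustment, and both calls were lost with single libraries left out, at up to 0.123 and 0.104. ZNF536, a regulator of neuronal differentiation, was listed at 0 in all libraries but 1, at 0.0391 FPKM, and was not tested.

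The partners through which KRAB proteins silence chromatin were expressed at higher levels than the zinc finger genes. Of 22 partner genes tested, 5 were higher (TRIM28, HDAC2, CBX5, HDAC1 and UHRF1) and 3 lower (MPHOSPH8 and MORC2 among them) in resistant cells, which is 36.4% beside 44.4% of all genes, and 11 were called higher after quantile normalization or median-ratio scaling. TRIM28, the corepressor itself, was at 608, 480 and 623 FPKM in parental and at 1690, 1950 and 1840 FPKM in resistant cells, without overlap. Its log2 fold change was 1.69 ± 0.12 (SE, limma with Benjamini-Hochberg adjustment, adjusted p = 0.000108). Its gene lies on chromosome 19 too, but outside the family by name.

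SETDB1, the H3K9 methyltransferase, was at 30.7, 37.9 and 35.3 FPKM in parental and at 39.5, 40.8 and 40.9 FPKM in resistant cells, and did not pass (log2 fold change 0.23 ± 0.10 SE, limma with Benjamini-Hochberg adjustment, adjusted p = 0.106). It passed after quantile normalization and with median-ratio scaling, where the change was 0.31 and 0.33. CBX5, the HP1 alpha protein that binds methylated H3K9, rose from 43.8, 44.6 and 47.4 to 87.7, 85.9 and 97.1 FPKM (log2 fold change 0.99 ± 0.08 SE). The histone deacetylases of the NuRD complex rose as well, HDAC2 from a mean of 60.0 to 112 FPKM (0.90 ± 0.06 SE) and HDAC1 from 129 to 215 FPKM (0.74 ± 0.08 SE). The other NuRD genes of the list, CHD3, CHD4, MTA1, MTA2, RBBP4 and RBBP7, did not pass, with changes from -0.51 (CHD3) to 0.19 (RBBP4). The other HP1 genes, CBX1 (0.24) and CBX3 (-0.02), did not pass either. MPHOSPH8, a subunit of the HUSH complex, and MORC2, its cofactor, both fell by 0.70 on the log2 scale. The other HUSH subunits, FAM208A and PPHLN1, had values of 0.40 ± 0.13 and 0.39 ± 0.15 (SE), higher in resistant cells without overlap, but did not pass (adjusted p = 0.0512 and 0.0727, limma with Benjamini-Hochberg adjustment). These HUSH genes, MORC2 and UHRF1 were picked after their values were seen. The call of UHRF1, which guides maintenance DNA methylation, was lost with single libraries left out (adjusted p up to 0.0631, limma with Benjamini-Hochberg adjustment).

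**Figure D5:**
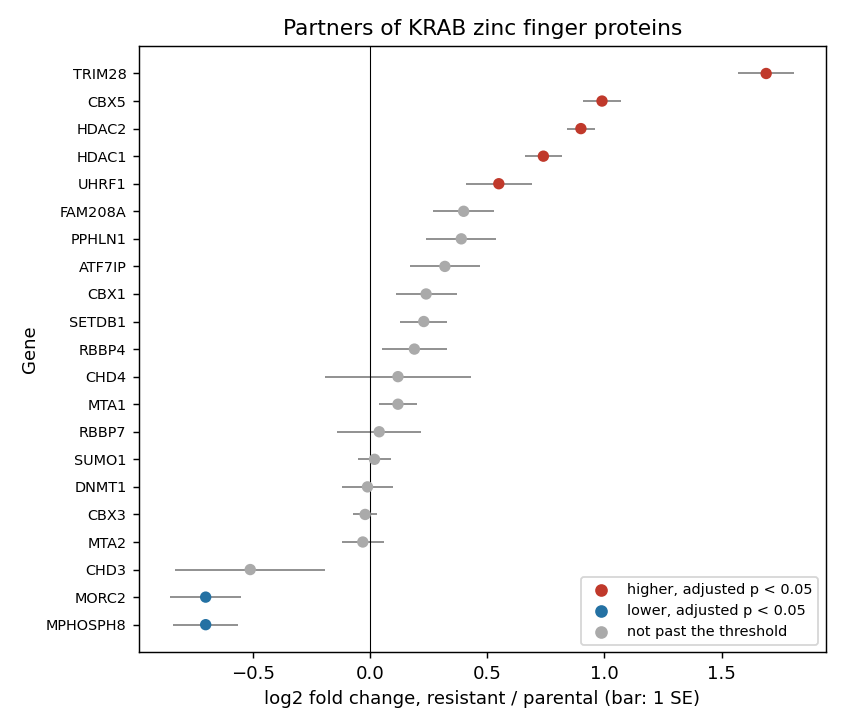
Log2 fold change (resistant over parental, x axis, bars of 1 SE) of partner genes of KRAB zinc finger proteins (y axis, sorted; 1 of the 22 is not drawn). TRIM28 stands furthest to the right at 1.69, MPHOSPH8 and MORC2 lie at -0.70, and 14 genes did not pass the threshold.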

How the data were processed

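RNA-Seq of C4-2B parental and C4-2B enzalutamide resistant cells (3 libraries each, single-end reads of 50 bp) was analysed. Per the paper's methods, the authors trimmed reads with TrimGalore, aligned them with STAR to GRCh38 and made the deposited FPKM values with Cufflinks 2.2.1 on GENCODE annotation. The submitters' processing notes also list Trimmomatic 0.27, FastQC 0.10.1 and the build mm10, but 99.9% of the matched gene positions overlap those of GENCODE v44 on GRCh38. The table names no unit, and FPKM was taken from the methods and the form of the values. It holds no read counts, so no count test was run, and a value of 0 was read as listed at 0. The depth was estimated from the step that 1 read leaves on genes of 600 to 8000 bases, assuming 200-base fragments.

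The comparison used limma 3.58.1 (lmFit and eBayes with trend, R 4.3.3) on log2(FPKM + 0.1) for every gene whose mean reached 0.1 FPKM, 24468 in all. Tests were two-sided, and p-values were adjusted over all these genes by the Benjamini-Hochberg method at 0.05. An exact permutation test of 3 against 3 libraries cannot go below p = 0.1 and was not used. The fit was tested on simulated data. Clusters came from positions alone, with a gap of 1 Mb and at least 5 members.

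C2H2 fingers were counted by their cysteine and histidine spacing, and KRAB boxes were found with pyhmmer 0.12.3, in GENCODE v44 coding sequences. Words of 50 bases shared with transcripts of other genes mark where reads of this length cannot be assigned to 1 gene. Promoters were matched for 215 of 261 symbols in the RefSeq table of GRCh38.p14 and aligned globally with Biopython 1.88.

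Genes were named by a rule: the 6 largest increases and 6 largest decreases among non-overlapping calls with a group mean of at least 1 FPKM, the same leading genes per cluster, the 5 most abundant, the 3 most abundant not called, 14 with a known role, and 5 partners. Some genes of the lists are not reported here. Members, lists and tests were chosen with earlier results of these data known. Alternatives covered the pseudocount, the filter, the scaling, the variance trend, the replicate block, the cluster gap and each library left out. The sharing of 50-base words as a filter was added after seeing the data.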

Additional observations from a re-analysis of the deposited data

How the results depend on the processing

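The number of members called higher (62) and lower (45) was 35 and 17 when a 2-fold change was required as well, and with single libraries left out it ranged from 47 to 56 and from 29 to 38, the lowest number called lower coming without parental replicate 2. The numbers 0, 1 and 2 of the libraries did not pair them: the deviations of same-numbered libraries correlated at 0.00802, 0.0165 and -0.00301, and resistant replicate 0 correlated best with parental replicate 2. A fit with the replicate block called 52 members higher and 41 lower, beside 4670 and 4793 of all genes, ZNF582 and ZNF671 lost their calls, and ZNF331 (-0.46) gained one.

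The median of all members was 0.14 above that of all genes and 0.01 above it with no filter on low values. For cluster 1 the same difference was 0.70 and became 0.16 with a pseudocount of 1, 0.26 with a mean of at least 1 FPKM and 0.18 after quantile normalization. For cluster 3 it was 0.57 and became 0.38 with a pseudocount of 1 and 0.31 with genes under 20% shared words only. Cluster 4 had 0.76, and 0.54 with a pseudocount of 1 or 0.52 with no filter, and cluster 9 had -0.01, and -0.12 with no filter. With single libraries left out, cluster 2 (-0.21) ranged from -0.35 to -0.18 and cluster 8 (-0.22) from -0.20 to -0.07, lowest in size without resistant replicate 0. The number of cluster 4 genes called lower (3) was 6 when values were rescaled without genes under 300 bases, and 1 to 4 with single libraries left out. KRAB partners called higher (5) numbered 11 after quantile normalization and 11 with median-ratio scaling.

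ZNF350 and ZNF91 changed sign with median-ratio scaling (0.05 and 0.01), and with single libraries left out they ranged from -0.34 to 0.20 and from -0.18 to 0.02. The cause of these shifts was not tested. Depth limits the genes near 0.1 FPKM, where a few reads set the parental level.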
